A study of Mus musculus with 2 samples.

Results

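The genes examined here make cholesterol and fatty acids or regulate that synthesis: enzymes of the mevalonate and sterol steps, the SREBP regulators, enzymes that build and desaturate fatty acids, and 2 sterol transport genes. They were a list of 33 genes chosen by name, with earlier results of these data known. The arrays held 18194 genes with a probe set that carries a single gene symbol. Of the 33, 32 had such a probe set and all 32 were measured on both arrays. Acat2 had none, so it has no signal here and enters only the promoter sequences described below. RNA came from mouse embryonic fibroblasts (MEFs), connective tissue cells grown out of embryos of Malat1 knock-out and wildtype mice, both labelled C57BL/6. Malat1 is a long noncoding RNA of the nucleus. The embryos were at day 13.5, and the untreated cells were kept for 2 weeks before total RNA was hybridized to Affymetrix Mouse430_2 arrays, 1 for the knockout and 1 for the wildtype. The labels state neither the knockout allele nor how many embryos went into a culture. Since each genotype has 1 array, the differences have no replicate check and no p-value is given, and the precision is limited by the number of arrays.

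Cells make cholesterol from acetyl-CoA through mevalonate, squalene and lanosterol, and make fatty acids from the same acetyl-CoA. SREBPs are transcription factors held in the endoplasmic reticulum membrane with the escort protein Scap. When sterols are plentiful, Insig proteins retain the complex, and when sterols are scarce it moves to the Golgi, where proteases release the active factor, which then switches on genes of both pathways. Fibroblasts in culture both take up lipid from serum and make their own.

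Malat1 served as the check of the labels. Its brightest probe set read a log2 signal of 4.53 in the knockout array, below the floor, and 9.80 in the wildtype array. The floor was each array's median signal, 5.44 for the knockout and 5.39 for the wildtype, and a gene counted as measured at or above it. All 10 fibroblast markers were measured on both arrays. Sex-linked RNAs separated the arrays as the genotype did: Xist read 11.49 in the knockout and 4.50 in the wildtype, and the Y-linked Eif2s3y read 2.81 in the knockout and 8.57 in the wildtype. Genotype and the sex of the embryos cannot be told apart in these arrays. Hybridization spike-ins, RNAs added during the assay, were lower on the knockout array at all 18 probe sets, with a median difference of -0.23. Other controls went the other way: 22 of 27 Bacillus RNA probe sets were higher on the knockout array (median 0.13), as were all 3 for 18S ribosomal RNA (median 0.58). The median difference over all 11295 genes measured on both arrays was -0.05, and within a gene, differences at its separate probe sets had an SD of 0.199.

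The lipid synthesis genes had similar signals on both arrays, with a small shift towards lower values in the knockout. No member reached a 1.5-fold difference in either direction, a size passed downwards by 1.61% and upwards by 0.832% of all measured genes. By any amount, 28 members were lower in the knockout and 4 were higher, where 59.8% of all measured genes were lower and 39.2% higher. With the median difference set to 0 the split became 20 lower and 12 higher, where 47.6% of all measured genes were lower. The median log2 difference of the 32 members, knockout minus wildtype, was -0.12, with quartiles of -0.27 and -0.03. At a log2 size of at least 0.32, 5 members were lower (Lss, Abca1, Scd1, Fads2 and Fads1) and 0 higher, against 9.91% and 5.96% of all measured genes. Under each of the 3 other scalings 3 of the 5 remained (Lss, Abca1 and Scd1). By that size, 5.60% to 6.61% of all measured genes were lower under these scalings. The 5 members spread over 3 of the 5 roles. In bulk RNA such as this, fewer cells of a type and less RNA per cell cannot be told apart.

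**Figure D1:**
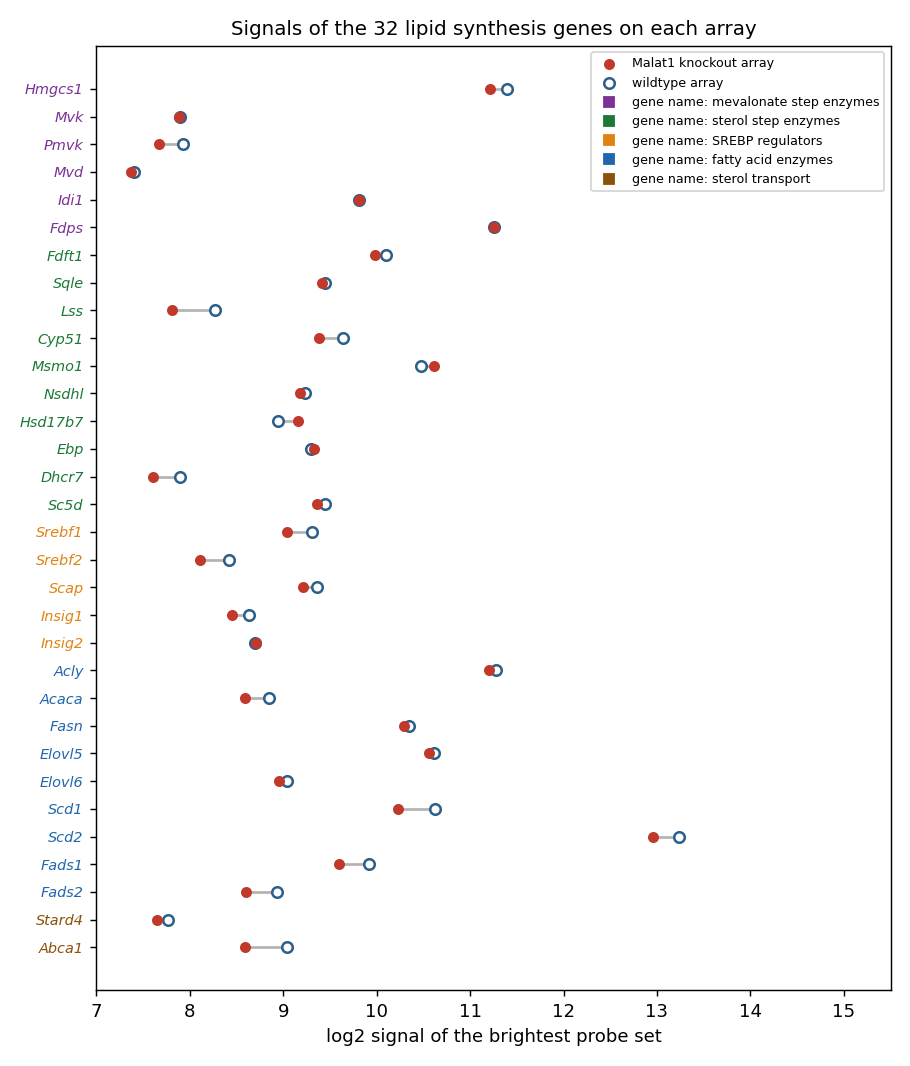
Log2 signal (horizontal axis) of the brightest probe set of each of the 32 genes on the Malat1 knockout array (filled) and the wildtype array (open), 1 array each, so without error bars; gene names are coloured by role. The pairs lie close together, the widest being Lss (7.81 in the knockout, 8.27 in the wildtype), and signals of different genes are not comparable.

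**Figure D2:**
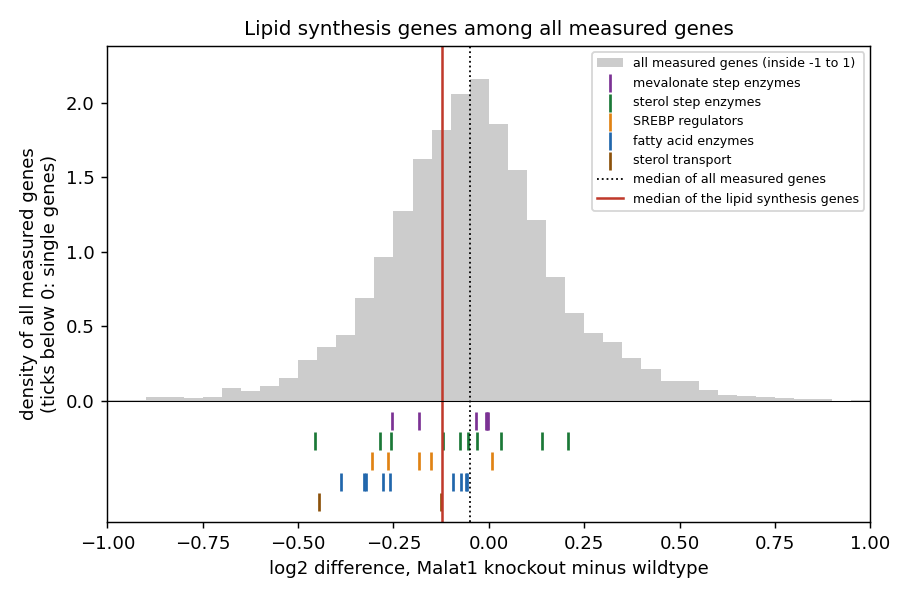
Density of the log2 difference, knockout minus wildtype, over all measured genes (grey) with 1 tick per lipid synthesis gene below, in a line for each role. The median of the 32 genes (-0.12) lies left of that of all measured genes (-0.05), a distance of -0.07 that was as large under 3 other scalings, and the ticks lie inside the bulk of the distribution.

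The share of lower genes varied with brightness over the whole array. Measured genes were split into 4 bins of equal size by mean signal. None of the 32 members lay in the dimmest bin, where 43.6% of genes were lower in the knockout array. In the next 3 bins, from dim to bright, 69.9%, 69.8% and 55.8% of all genes were lower, and the members there numbered 7, 14 and 11, of which 7, 11 and 10 were lower. The members' median differences in these bins were -0.25, -0.12 and -0.07, beside -0.11, -0.08 and -0.02 for all genes of the bin. The lower side was thus also the commoner one among genes of similar signal.

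Genes that respond to SREBPs often carry a sterol regulatory element in the promoter, next to sites for the general factors NF-Y (the CCAAT box) and Sp1 (the GC box). RefSeq promoter windows of mouse build GRCm38.p6, 250 bases before to 50 after a transcription start, matched 26 of the 33 members by symbol. The 7 with no window, which could not be searched, were Fdps, Fdft1, Sqle, Fads1, Scd1, Scd2 and Stard4. Elements outside a window or with other spellings than those searched would be missed. Below are the windows of Hmgcs1, the one member window with a match to the sterol element core, of Lss, Abca1 and Fads2, which had the largest differences downwards among members with a window, and of Hsd17b7, the highest. Capitals mark matches on either strand to a motif. The sterol element core was searched as TCACNCCAC. The CCAAT box was searched by the letters of its name, the GC box as GGGCGG and the E-box, which SREBPs also bind, as CACGTG. No matches of different motifs overlapped. The windows lie at chr13:119690101-119690400, plus strand (Hmgcs1); chr10:76531355-76531654, plus strand (Lss); chr4:53159846-53160145, minus strand (Abca1); chr19:10101454-10101753, minus strand (Fads2); and chr1:169969156-169969455, minus strand (Hsd17b7).
Hmgcs1: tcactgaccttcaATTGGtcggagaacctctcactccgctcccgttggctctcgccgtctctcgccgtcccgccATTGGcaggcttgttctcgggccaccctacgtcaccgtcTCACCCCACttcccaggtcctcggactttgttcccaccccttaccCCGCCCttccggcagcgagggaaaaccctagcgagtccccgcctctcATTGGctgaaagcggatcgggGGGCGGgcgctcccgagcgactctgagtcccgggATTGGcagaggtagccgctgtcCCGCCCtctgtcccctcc
Lss: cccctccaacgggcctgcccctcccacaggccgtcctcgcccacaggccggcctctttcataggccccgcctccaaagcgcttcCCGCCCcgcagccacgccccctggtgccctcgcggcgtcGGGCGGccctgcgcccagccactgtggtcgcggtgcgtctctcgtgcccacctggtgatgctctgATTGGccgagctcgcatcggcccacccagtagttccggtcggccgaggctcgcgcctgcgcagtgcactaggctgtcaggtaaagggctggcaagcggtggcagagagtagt
Abca1: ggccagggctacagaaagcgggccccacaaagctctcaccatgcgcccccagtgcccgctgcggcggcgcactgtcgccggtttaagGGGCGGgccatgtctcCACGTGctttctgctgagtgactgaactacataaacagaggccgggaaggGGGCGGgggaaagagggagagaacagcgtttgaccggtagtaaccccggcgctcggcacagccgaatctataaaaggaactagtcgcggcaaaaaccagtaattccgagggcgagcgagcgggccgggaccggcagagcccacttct
Fads2: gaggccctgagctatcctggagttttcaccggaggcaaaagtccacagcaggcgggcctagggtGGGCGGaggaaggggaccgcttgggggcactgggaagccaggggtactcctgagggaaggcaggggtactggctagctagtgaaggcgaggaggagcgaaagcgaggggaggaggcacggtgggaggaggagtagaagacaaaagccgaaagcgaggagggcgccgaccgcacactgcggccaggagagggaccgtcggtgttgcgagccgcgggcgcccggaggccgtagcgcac
Hsd17b7: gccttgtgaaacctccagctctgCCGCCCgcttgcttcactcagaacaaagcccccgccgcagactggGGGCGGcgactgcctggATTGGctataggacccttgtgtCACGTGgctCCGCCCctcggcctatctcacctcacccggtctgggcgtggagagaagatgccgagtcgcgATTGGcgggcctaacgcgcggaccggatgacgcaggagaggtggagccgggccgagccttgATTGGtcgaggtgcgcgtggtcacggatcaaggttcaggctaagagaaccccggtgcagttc

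The Hmgcs1 window held 1 sterol element core, 4 CCAAT boxes and 3 GC boxes, and Hsd17b7, a member with a higher signal in the knockout, held 3 CCAAT boxes, 3 GC boxes and 1 E-box. Lss had 1 CCAAT box and 2 GC boxes, Abca1 2 GC boxes and 1 E-box, and Fads2 1 GC box. Over all 34 member windows, 61.8% had a CCAAT box, 73.5% a GC box, 23.5% an E-box and 2.94% the sterol element core. Among all 32851 promoter windows these shares were 37.4%, 35.7%, 7.15% and 1.24%. The windows of the lower members Lss, Abca1 and Fads2 and of the higher Hsd17b7 all hold GC boxes, as do 73.5% of member windows. A match is a description of the sequence only.

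The mevalonate steps, which turn acetyl-CoA into farnesyl diphosphate, differed little between the arrays. Their 6 measured enzymes had a median difference of -0.02, whose sign turned under each of the 3 other scalings. All 6 values were below 0 as deposited, where 59.8% of all measured genes were lower. Hmgcs1, which condenses acetyl-CoA units into HMG-CoA, read 11.21 in the knockout array and 11.39 in the wildtype array. All 4 of its measured probe sets were lower in the knockout, by differences of -0.29 to -0.08. Pmvk, the phosphomevalonate kinase, read 7.67 in the knockout and 7.93 in the wildtype from its only probe set, a difference of -0.25. These were the enzymes of the steps with the widest gaps, and neither gap reached 0.32 on the log2 scale.

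The other mevalonate enzymes were nearly level. Mvk, the mevalonate kinase, read 7.89 on both arrays, and its second probe set differed by -0.01. Mvd, which decarboxylates mevalonate diphosphate, read 7.37 in the knockout and 7.40 in the wildtype. Idi1, the isopentenyl diphosphate isomerase, read 9.81 on both arrays, with a second probe set at 8.99 in the knockout and 8.96 in the wildtype. Fdps, which makes farnesyl diphosphate, read 11.25 in the knockout and 11.26 in the wildtype. The differences of these 4 enzymes, -0.03 to -0.002, turned sign under the 3 other scalings.

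The sterol steps, from squalene to cholesterol, had differences in both directions. Of 10 measured enzymes 7 were lower in the knockout and 3 were higher, where 59.8% of all measured genes were lower and 39.2% higher. The median was -0.06, a value that was 0.01 after quantile normalization and after loess centring. Lss, the cyclase that closes squalene epoxide into lanosterol, had the largest difference of all members: 7.81 in the knockout and 8.27 in the wildtype, 1.37-fold lower. Its second measured probe set read 6.03 in the knockout and 6.12 in the wildtype, a difference of -0.09. The brighter Lss probe set ends in _s_at, a kind shared by several transcripts, and the 2 disagree in size by 0.363.

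Dhcr7, the reductase of the last step to cholesterol, read 7.61 in the knockout and 7.90 in the wildtype from 1 probe set. Cyp51, the lanosterol demethylase, read 9.38 in the knockout and 9.64 in the wildtype, and its other measured probe sets differed by -0.27 and 0.09. So 2 of the 3 Cyp51 probe sets were lower by about the same amount, and the dimmest went the other way. Fdft1, squalene synthase, the first enzyme committed to sterols, differed by -0.12, with its second measured probe set at -0.11. Sqle, the squalene epoxidase and a flux-controlling enzyme, read 9.41 in the knockout and 9.44 in the wildtype, and Sc5d, a sterol desaturase, 9.37 in the knockout and 9.44 in the wildtype. The sign of the small Sqle difference turned under all 3 other scalings and that of Sc5d under 2 of them.

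Hsd17b7, the reductase that works on keto sterols while methyl groups are removed from lanosterol, was the member with the largest difference upwards. It read 9.15 in the knockout and 8.94 in the wildtype, and its 3 measured probe sets were all higher in the knockout, by 0.20 to 0.26. Msmo1, the oxidase that starts the removal of those methyl groups, read 10.61 in the knockout and 10.47 in the wildtype. Both stayed higher under the 3 other scalings, Hsd17b7 by 0.27 to 0.30 and Msmo1 by 0.18 to 0.20. Nsdhl and Ebp, the X-linked enzymes of this stretch, differed by -0.05 and 0.03, Nsdhl with a sign that turned under the 3 other scalings. Beside them the X-linked genes Kdm6a, Kdm5c and Eif2s3x, which escape X inactivation, were higher in the knockout array by 0.32, 0.31 and 0.59.

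Regulators of the pathway were lower in the knockout array at 4 of 5 genes, where 59.8% of all measured genes were lower. The median of the 5 was -0.18, which ranged from -0.12 to -0.07 under the 3 other scalings. Srebf2, which encodes the SREBP that mainly drives cholesterol genes, read 8.11 in the knockout and 8.42 in the wildtype, and 7.27 and 7.51 at its second probe set. Srebf1, whose products mainly drive fatty acid genes, read 9.04 in the knockout and 9.30 in the wildtype. Both SREBP genes were thus lower at each of their measured probe sets, with differences of -0.31 to -0.25. Scap, the sterol-sensing escort, read 9.21 in the knockout and 9.36 in the wildtype. Insig1, a retention protein and itself a target of SREBPs, read 8.45 in the knockout and 8.63 in the wildtype. Insig2, its relative that depends less on SREBPs, read 8.70 on both arrays, and its 3 probe sets ran from -0.09 to 0.05.

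**Figure D3:**
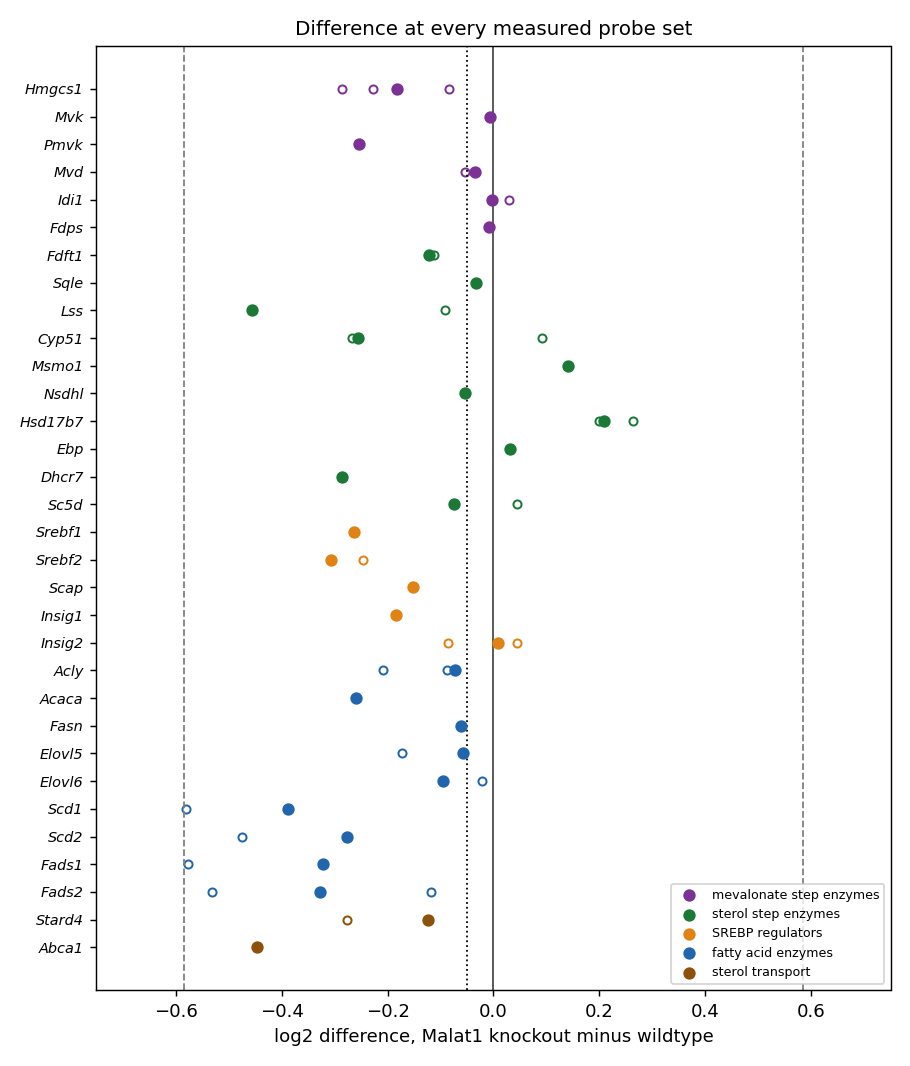
Log2 difference, knockout minus wildtype, at every measured probe set of each gene: filled points are the brightest probe set, open points the others, dashed lines 1.5-fold, the dotted line the median of all measured genes. All 59 points lie inside 1.5-fold, and 49 of them lie below 0, where 61.7% of all measured probe sets with 1 symbol do. The widest gaps are those of second probe sets of Scd1 (-0.58) and Fads1 (-0.58).

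Fatty acid enzymes had a median of -0.26 over 9 genes. All 9 were lower in the knockout array as deposited, where 59.8% of all measured genes were lower. Under the 3 other scalings the median was -0.20 to -0.15, and Elovl5 and Fasn each turned sign under 1 of them. The desaturases, which put double bonds into fatty acids, stood lowest within the role. Scd1 and Scd2 make monounsaturated fatty acids. Scd1 read 10.23 in the knockout and 10.62 in the wildtype, 1.31-fold lower, and its second probe set 7.46 in the knockout and 8.04 in the wildtype. Scd2 read 12.96 in the knockout and 13.24 in the wildtype, and its second measured probe set 8.73 in the knockout and 9.21 in the wildtype. In both genes the dimmer probe set had the wider gap.

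Fads1 and Fads2 act on polyunsaturated fatty acids and, with Fads3, are adjacent protein-coding genes in RefSeq. Fads1 read 9.59 in the knockout and 9.92 in the wildtype, and its second probe set 5.75 in the knockout and 6.33 in the wildtype. Fads2 read 8.60 in the knockout and 8.93 in the wildtype, with its other measured probe sets at -0.12 and -0.53. Fads3, a relative outside the list, differed by -0.18. Over the 4 desaturases all 9 measured probe sets were lower in the knockout, with differences of -0.58 to -0.12 and a median of -0.39. The other 5 fatty acid enzymes also had all 9 measured probe sets lower, with a median of -0.09. Of all measured probe sets with 1 symbol, 61.7% were lower. Each of the 4 desaturases kept its sign under every alternative tried, and they are among 18 lower members that did so. The desaturases were grouped after their values were seen.

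The enzymes that build the carbon chain were closer to level. Acaca, acetyl-CoA carboxylase, the committing step, read 8.59 in the knockout and 8.85 in the wildtype, a difference of -0.26. Acly, which supplies cytosolic acetyl-CoA from citrate, read 11.21 in the knockout and 11.28 in the wildtype, with its other measured probe sets at -0.09 and -0.21. Fasn, the fatty acid synthase, read 10.29 in the knockout and 10.35 in the wildtype. Acaca thus had a gap near that of the desaturases, and Fasn, the next enzyme of the chain, one near the median of all genes. The elongases Elovl6 and Elovl5 differed by -0.09 and -0.06, and by -0.02 and -0.17 at their second probe sets.

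Among the transport genes, Abca1, the pump that exports cholesterol to lipoproteins and a target of the sterol-sensing receptor LXR, read 8.60 in the knockout and 9.04 in the wildtype, 1.36-fold lower. Its other 2 probe sets were below the floor on both arrays. Stard4, which carries cholesterol between membranes and is a target of SREBPs, read 7.64 in the knockout and 7.77 in the wildtype. All 3 Stard4 probe sets were lower in the knockout as deposited, with differences of -0.28 to -0.12, and the difference at the brightest was 0.003 under 1 other scaling.

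Probe sets of one gene gave a check within the arrays, though they share the RNA and are not replicates. Of 19 members with several measured probe sets, 14 had all of them lower, 1 (Hsd17b7) all higher and 4 (Idi1, Cyp51, Sc5d and Insig2) some of each. Among all 4883 measured genes with several, 41.8% had all lower and 14.5% all higher. The other 13 members rested on 1 measured probe set.

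A wider list of 58 genes of lipid synthesis, uptake and storage was set beside the members. Of these 49 had a probe set and 42 were measured on both arrays. In the knockout 29 of the 42 were lower and 13 higher, where 59.8% of all measured genes were lower and 39.2% higher. The median of the 42 was -0.09, and it was -0.04 to -0.03 under the 3 other scalings. At 1.5-fold, passed downwards by 1.61% and upwards by 0.832% of all measured genes, 1 was lower and 0 higher. That gene was Cyp7b1, a hydroxylase of oxysterols, at 6.78 in the knockout and 7.63 in the wildtype, with a second probe set at 6.41 in the knockout and 6.87 in the wildtype. Vldlr, a lipoprotein receptor, read 8.05 in the knockout and 8.64 in the wildtype. Its other measured probe sets disagreed, at -0.84 and 0.10. Mid1ip1, an X-linked activator of acetyl-CoA carboxylase, read 8.98 in the knockout and 9.55 in the wildtype. The largest differences upwards were smaller, 0.25 for Ufd1, 0.23 for Hacd3, an enzyme of fatty acid elongation, and 0.23 for Tm7sf2, a sterol reductase. Acss2, which makes acetyl-CoA from acetate, was measured on the wildtype array alone, at 5.39 in the knockout and 5.89 in the wildtype.

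Markers of other cell types also differed between the arrays. Of all measured genes, 59.8% were lower in the knockout and 39.2% higher. Sums of linear signal, given below, weigh the brightest genes most. Of the adipocyte markers, Adipoq, Cidec, Pparg and Lep lay below both arrays' floors, and 3 of the 4 measured were higher in the knockout. The summed linear signal of the 8 adipocyte markers with a probe set was 502.4 in the knockout and 447.3 in the wildtype. Macrophage markers, from cells that also express Abca1, were lower at 6 of 8, with sums of 2898 in the knockout and 3618 in the wildtype. Epithelial markers were higher at all 6 measured, with sums over 8 of 1527 in the knockout and 1125 in the wildtype. Endothelial markers were higher at all 4 measured, with sums over 7 of 1344 in the knockout and 849.9 in the wildtype. The widest endothelial gap was that of Emcn, at 9.00 in the knockout and 7.53 in the wildtype. Egfl7 differed by 0.11 at its brightest probe set and by -0.25 and -0.02 at its other measured ones. Cdh1 of the epithelial markers and Pecam1, Cdh5 and Tie1 of the endothelial ones lay below both floors. Fibroblast markers were lower at 7 of 10, with sums of 77818 in the knockout and 87697 in the wildtype. The part of these cells in the lipid gene differences was not tested.

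**Figure D4:**
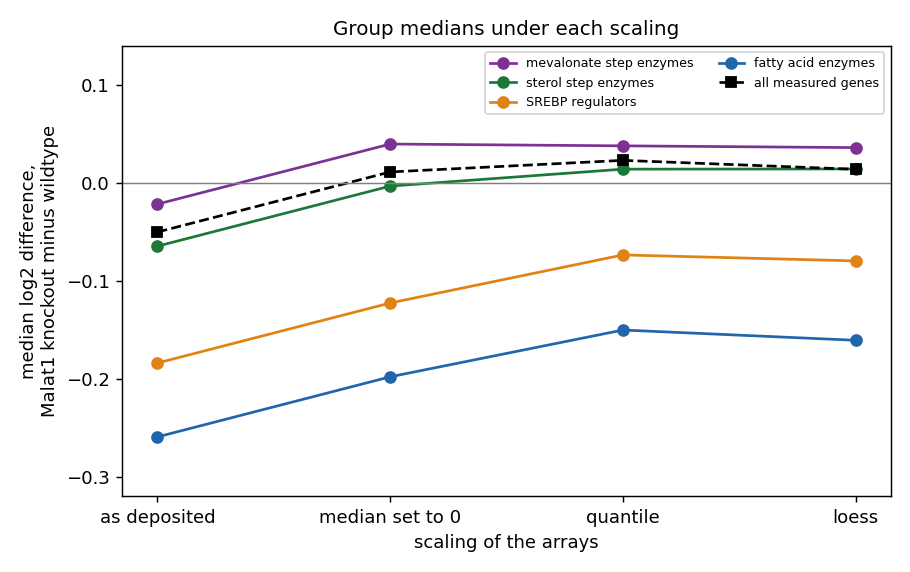
Median log2 difference, knockout minus wildtype, of 4 roles and of all measured genes (vertical axis) with the arrays as deposited and under 3 other scalings (horizontal axis). Fatty acid enzymes (-0.26 as deposited, -0.15 after quantile normalization) and SREBP regulators (-0.18 and -0.07) stay below all measured genes in each, while mevalonate and sterol enzymes lie near them and change sign.

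The scaling of the arrays set how far the members lay from 0 more than how far they lay from other genes. Under the 3 other scalings the members' median was -0.06 to -0.05 and that of all measured genes 0.01 to 0.02. The distance between the members' median and that of all genes was -0.07 as deposited and -0.08 to -0.07 under them. Of the 28 members lower as deposited, 18 kept that sign in all 3, as did the 4 higher ones. The 10 that did not were Fdps, Idi1, Mvd, Mvk, Nsdhl, Sqle, Sc5d, Elovl5, Fasn and Stard4.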

How the data were processed

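RNA from MEFs of 1 Malat1 knock-out and 1 wildtype culture was labelled from 100 ng of total RNA, per the labels' protocols. The values the authors deposited, 1 per probe set on each array, were taken as log2 signals from their range, 2.09 to 14.71. The software and the summarization and normalization steps were not given in the sources used here. After sorting, the arrays' values lay up to 0.133 apart, and 1211 probe sets had the same value on both.

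Gene names came from the platform annotation (34958 probe sets with 1 symbol, 932 with several, 64 controls). A gene was represented by its brightest probe set by the mean of both arrays, measured where both signals reached the median of their array, taken over the 45037 probe sets that are not controls. All 32 members with a probe set passed that filter. Differences are knockout minus wildtype on the log2 scale, called past 1.5-fold, with no test. All members were named, with the 3 largest differences each way in the wider list, and other genes as checks. The members and lists were chosen with earlier results of these data known. The grouping of desaturases, Fads3 and Acss2 were added after values were seen.

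Alternatives were 3 scalings (median difference set to 0, quantile, loess with a span of 0.3), no floor or one at the 75th or 40th percentile, other probe set rules, 16 or 64 added to linear values, and sizes of 0.32 on the log2 scale and 2-fold. The calling steps were tested on simulated arrays with known 2-fold differences. Every member differed by less, so that test does not speak to differences as small as theirs. Python 3.11.15, pandas 2.3.3, numpy 2.4.6 and statsmodels 0.14.6 were used.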

Additional observations from a re-analysis of the deposited data

How the results depend on the processing

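No paired analysis was possible because there is only 1 array for the knockout and 1 for the wildtype, and no array could be left out for the same reason. Changes to the floor, to the signals added or to the probe set rule left the median of the members between -0.13 and -0.10. Setting the median difference to 0, quantile normalization and loess centring brought it to -0.061, -0.054 and -0.059, and the members higher in the knockout to 12, 12 and 11; taking the median over all probe sets, 7 were higher. The same 3 scalings brought the wider lipid list to -0.026, -0.036 and -0.032. Quantile normalization and loess centring gave -0.073 and -0.080 for SREBP regulators, -0.150 and -0.161 for fatty acid enzymes and 0.014 and 0.014 for sterol enzymes, a change of sign. The mevalonate median also changed sign, to 0.038 and 0.036 under these and 0.040 with the median difference set to 0. No member reached 1.5-fold under any of the 11 alternatives of scaling, floor, probe set and low signals. At a size of 0.32 on the log2 scale 5 were lower as deposited and 3 under each of the 3 scalings. The count was also 3 with 16 or 64 added and by the median over all probe sets. Under the alternatives with 3, 4.94% to 8.30% of all measured genes were lower by that size. The count of members across alternatives was added after seeing the data. Of 350 values of single members under alternatives, 3 moved by more than the SD between probe sets of one gene: Lss to -0.09 when the median over all its probe sets was used and when _s_at and _x_at probe sets were left out, and Abca1 to -0.10 by its median over all probe sets, which includes those below the floor. The spread between cultures is unknown, and signals near the floor understate a difference.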
